A study of Homo sapiens with 9 samples.

Results

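The 34 genes described here encode the core histones H2A (17 genes, among them the variant gene H2AX) and H2B (17 genes). They were taken by name from the GENCODE annotation of GRCh38, and a peak was counted for a gene where it overlapped that gene on the gene's own strand. A peak in any of the 54 libraries was listed for 21150 genes in all, and for 30 of these 34. Of the 34 genes, 25 lie on chromosome 6, 8 on chromosome 1, and H2AX lies alone on chromosome 11.

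Most histone mRNAs are made in S phase, when new DNA has to be packed. They are the metazoan mRNAs that end without a poly(A) tail: the transcript is cut shortly after a conserved stem-loop in the 3′ UTR, and the stem-loop-binding protein SLBP holds that structure from 3′ end processing through export and translation to decay. H2A and H2B form a dimer in the nucleosome, and their genes are intronless, present in many near-identical copies and often arranged head to head.

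Antibody-barcode eCLIP (ABC) maps where an RNA-binding protein (RBP) touches RNA. Cells are UV crosslinked, a barcode oligonucleotide on the antibody is joined to the RNA that its RBP holds, and several RBPs can then be read from a single tube. SLBP was profiled alone (singleplex) in K562, a chronic myeloid leukaemia line, with 2 replicates. RBFOX2 was profiled alone in HEK293T, a human embryonic kidney line that the methods name HEK293XT, with 2 replicates, and a 10plex of DDX3, EIF3G, FAM120A, IGF2BP2, LIN28B, PRPF8, PUM2, RBFOX2, SF3B4 and ZC3H11A was profiled in K562 with 3 replicates and in HEK293T with 2. No drug or genetic change was named for any group, SLBP was not in the pool, and SLBP was not profiled in HEK293T. Nothing in the labels says that replicates came from separate cultures, so p-values measure only the spread between these samples, which may be technical.

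The cell lines were checked against marker genes. All 7 K562 markers held peaks in each of the 3 K562 10plex samples and none of the 7 did in any HEK293T sample, while the HEK293 marker CDH2 held peaks in both HEK293T 10plex samples and had none listed in any K562 sample. Another HEK293 marker, PAX2, had peaks in all 5 K562 samples and does not separate the lines. The cell line field of both HEK293T 10plex samples reads K562 while their title and source name read HEK293T, and they held CDH2 but none of the 7 K562 markers. The SLBP samples held peaks in 3 and 1 of the 7 K562 markers. Depth, counted as reads in merged peaks, was 84645 and 19484 for SLBP, 13538 to 2188442 in the 30 K562 10plex libraries and 15889 to 2180979 in the 20 HEK293T 10plex libraries. The lists hold only regions called as peaks, so a gene without a listed peak is not shown to be unbound. A single library stood apart: IGF2BP2 of K562 replicate 1 held 0.523% of its peak reads in the 34 genes against 0.0899% and 0.111% in its other replicates, and results that rest on it are given with and without it.

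Each of the 34 genes carries a histone stem-loop of 16 nt, which starts 23 to 67 nt after the stop codon. Among the 120 nt that follow the stop codon, the histone stem-loop was found in 72 of 20046 protein-coding genes (0.359%), which were these 34, 38 other histone genes and 0 genes of other kinds. The members fall into groups by the exact stem-loop: 23 genes (12 H2A and 11 H2B) share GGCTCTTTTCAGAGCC, 6 genes (H2AC21, H2BC4, H2BC5, H2BC7, H2BC11 and H2BC12) share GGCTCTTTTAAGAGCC, and 5 genes have a form of their own. Below are the members with the strongest SLBP peak of each family (H2AC17 and H2BC4) followed by the 5 with an unshared stem-loop, as 30 nt of the sense strand written as DNA from GRCh38. Capitals mark the stem-loop, and the coordinates are those of the capitals.
H2AC17 (chr6:27892704-27892719, minus strand): acaaaaGGCTCTTTTCAGAGCCacccacca
H2BC4 (chr6:26123472-26123487, minus strand): cccaaaGGCTCTTTTAAGAGCCacccagat
H2AX (chr11:119094898-119094913, minus strand): cacaaaGGCCCTTTTAAGGGCCaccaccgc
H2AC11 (chr6:27133515-27133530, plus strand): accaacGGCTCTTTTCAGGGCCacccacgt
H2AC15 (chr6:27837885-27837900, minus strand): caaaaaGGTTCTTTTCAGAGCCacctactt
H2AC20 (chr1:149887391-149887406, plus strand): accaaaGGCTCTTTTTAGAGCCacccaagt
H2BC10 (chr6:26273392-26273407, plus strand): cccaaaGGCTCTTCTAAGAGCCacccatgt

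In K562, SLBP lay on nearly all of the H2A and H2B genes. An enriched peak, meaning more than 8-fold over the authors' background library at P under 0.001, was present in 29 of the 34 genes in each replicate and in 28 genes in both, 15 H2A and 13 H2B. Among all genes with a peak, 43.2% in replicate 1 and 99.9% in replicate 2 had an enriched one, so in the shallower replicate 2 the enrichment threshold separates almost nothing, and the read share is the more informative measure. All 85 and 56 SLBP peaks in these genes passed the enrichment threshold, each over a background of at most 1 read.

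The 34 genes held 12084 of the 84645 SLBP peak reads in replicate 1 (14.3%, Wilson 95% interval 14.04 to 14.5%) and 2854 of 19484 in replicate 2 (14.6%, 14.2 to 15.2%), a mean of 14.5% ± 0.263 (SD, n = 2). The intervals cover counting error only. Every other library was far below this. The share was 0 to 0.523% in the 30 K562 10plex libraries, with a median of 0.0854%, and 0.0369 to 0.475% in the 20 HEK293T 10plex libraries, with a median of 0.128%. RBFOX2 in singleplex held 0.0223% and 0.0468%. No library of another RBP overlapped the SLBP pair.

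**Figure D1:**
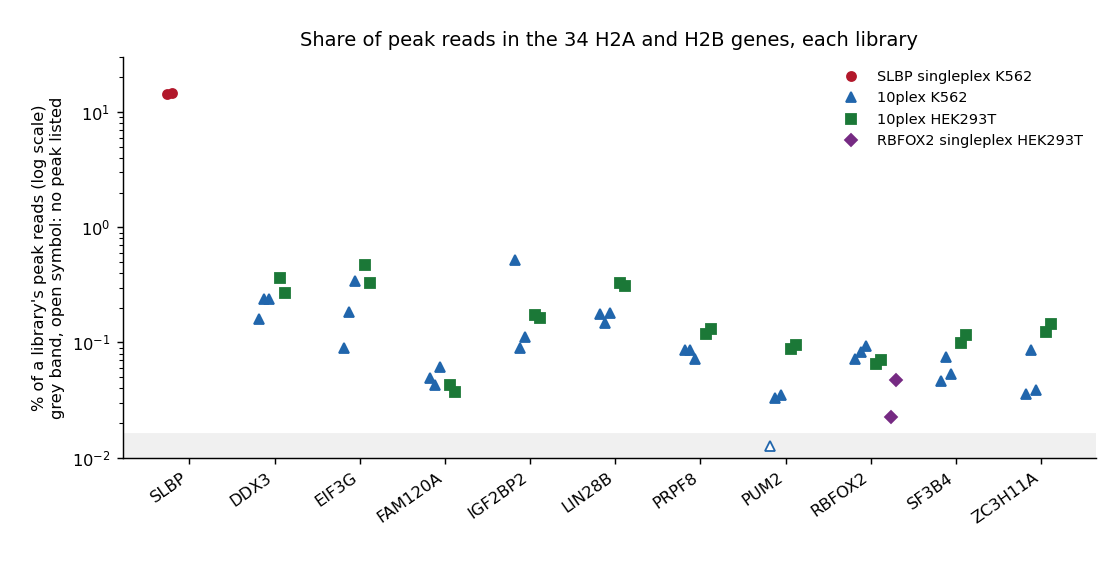
Share of each library's peak reads that lay in the 34 H2A and H2B genes (percent, log scale), by RBP; each point is a library, coloured by experiment, and the open symbol in the grey band is a library without a listed peak in these genes. Both SLBP libraries sit at 14.3% and 14.6%, and all 52 other libraries lie at or below 0.523%.

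The SLBP signal was spread very unevenly over the paralogs. The level of a gene is given here in RPM, the reads in its peaks per 1000000 peak reads of the library. Among the 28 genes enriched in both replicates it ran from 47.3 to 16162 RPM in replicate 1 and from 154 to 15295 in replicate 2. The 5 genes with the most reads held 43.2% and 45.3% of the members' reads, and the 10 with the most held 70.1% and 74.8%. The order was similar in both replicates (Spearman 0.92 across 28 genes, given as a description since genes are not independent replicates).

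The 8 H2A genes with the highest mean log2 fold of their top peak were H2AC17, H2AC11, H2AX, H2AC8, H2AC13, H2AC12, H2AC6 and H2AC20. H2AC17, a canonical H2A gene of the chromosome 6 cluster, held 11979 and 13652 RPM. H2AC11 held 8884 and 14217. H2AX, whose protein is phosphorylated around DNA double-strand breaks, held 13303 and 10214. These 3 genes stood near the top in each replicate, and which of them led depended on the replicate. H2AC8 held 10810 and 9084 RPM, and H2AC13 held 8813 and 7853. H2AC12 (4844 and 2618), H2AC6 (3721 and 2207) and H2AC20 (3048 and 2310) followed at a lower level. Each of these last 3 was lower in replicate 2 than in replicate 1, and all of them lay below the lowest value of the first 5 genes.

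The 8 leading H2B genes were H2BC4, H2BC7, H2BC12, H2BC8, H2BC13, H2BC11, H2BC21 and H2BC17. H2BC4 held the most SLBP reads of any member in replicate 1 (16162 RPM) and 12061 in replicate 2. H2BC7 held 5553 and 15295, a gap between replicates of the same order as that between many genes. H2BC12 held 9487 and 5594, and its ranges overlapped with those of the genes on either side of it. H2BC8 (8270 and 11189) and H2BC13 (6829 and 10419) were both higher in replicate 2. H2BC11 held 3910 and 3952, H2BC21 held 4737 and 4517, and H2BC17 held 5458 and 2874. The first 5 of these genes overlapped with their neighbours in the order, whereas H2BC11 lay below H2BC13 and below H2BC21 in each replicate.

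The foot of the order was held by H2AC4 (413 and 257 RPM), H2AC14 (70.9 and 205, from 6 and 4 reads) and H2BC3 (47.3 and 154, from 4 and 3 reads). H2AC14 and H2BC3 had peaks in the SLBP libraries alone among the 54. In log2 fold of the top peak over background, the 28 genes ran from 6.07 for H2BC3 to 13.04 for H2BC4 (means of 2 replicates). Since the background count of every one of these top peaks was at most 1, this fold is set by the reads in the peak and the depth of the library, and it reached the ceiling of the deposited P (−log10 of 400) for 7 and 1 of them.

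**Figure D2:**
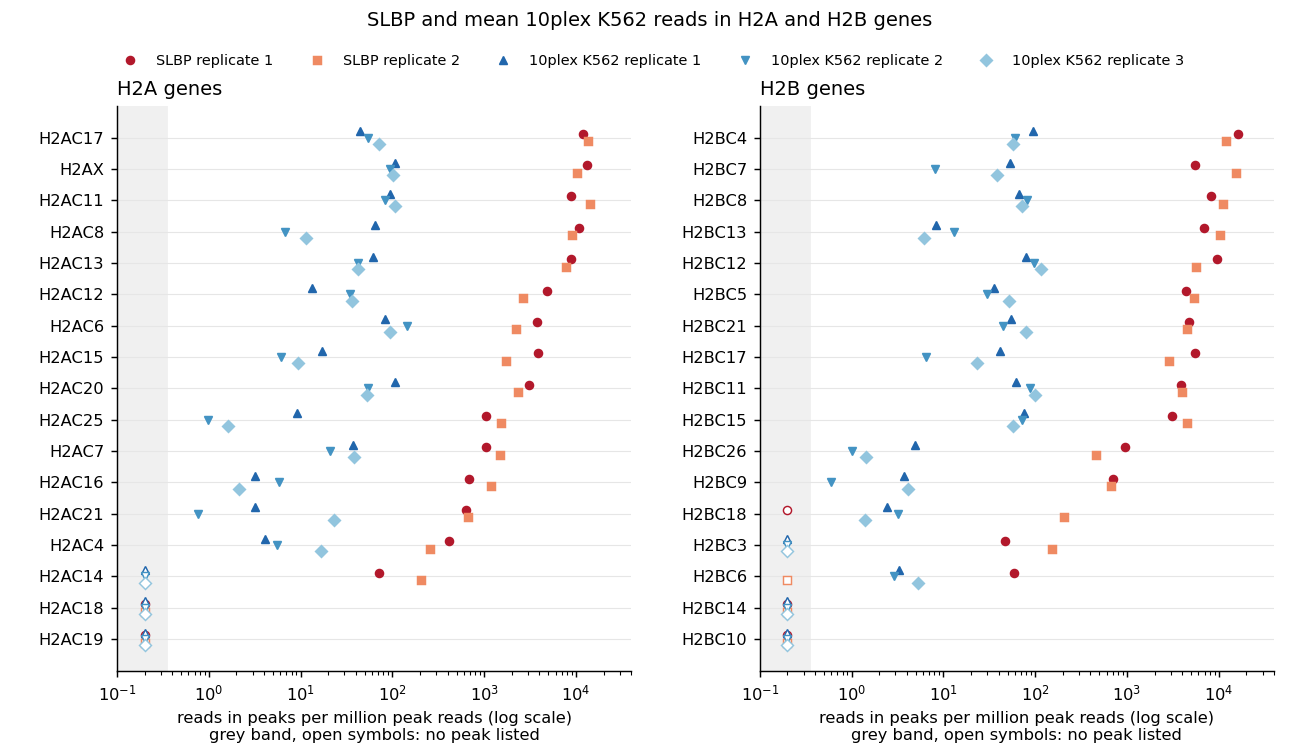
Reads in peaks per 1000000 peak reads (RPM, log scale) for each H2A gene (left) and H2B gene (right), in the 2 SLBP replicates and as the mean of the 10 libraries in each of the 3 K562 10plex samples; open symbols in the grey band mark no listed peak. SLBP points lie to the right of all 10plex points for every gene with a peak in both SLBP replicates, from 47.3 RPM at H2BC3 to 16162 at H2BC4.

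Paralogs without SLBP peaks were few, and they differ in how well reads can be placed on them. The authors kept uniquely mapped reads only, so a gene whose sequence occurs elsewhere in the genome cannot be seen in full. H2AC18 and H2AC19, neighbouring copies on chromosome 1, had no peak in any of the 54 libraries, and 0 of their 504 and 505 windows of 30 nt occur once in the genome. H2BC10 and H2BC14 also had no peak in any library, although 360 of 453 and 383 of 439 of their windows are unique. Their stem-loops lie in the same distance range as those of the other members.

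H2BC6 had an SLBP peak of 5 reads in replicate 1, at 21 to 53 nt after the stop codon and over its stem-loop, and none in replicate 2. H2BC18 had 4 reads in replicate 2, centred 298 nt before the end of the stop codon within the coding sequence, and none in replicate 1. Of the 22 windows of 30 nt that touch its stem-loop, 0 are unique, and 61 of its 463 windows are unique overall. Yet H2BC18 held peaks in 19 of the 20 HEK293T 10plex libraries.

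H2A and H2B took nearly equal shares of the SLBP reads. H2A genes held 6189 of the 12084 member reads in replicate 1 (51.2%, Wilson 95% interval 50.3 to 52.1%) and 1349 of 2854 in replicate 2 (47.3%, 45.4 to 49.1%), so the family ahead changed with the replicate. With the highest peak of each gene alone, H2A took 47.1% and 45.4%. Among genes enriched in both replicates, the median level was 3721 and 2207 RPM for the 15 H2A genes and 4737 and 4517 for the 13 H2B genes. The median log2 fold of the top peak was 10.4 and 10.7 for H2A and 10.96 and 11.6 for H2B. Both replicates put the H2B median above that of H2A, by less than the range within either family, and no test was made over genes.

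Grouped by stem-loop, the 18 detected genes with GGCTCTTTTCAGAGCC had a median of 3391 and 2412 SLBP RPM, and the 6 with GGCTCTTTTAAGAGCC a median of 4986 and 5492. The detected genes with an unshared stem-loop lay at 13303 and 10214 (H2AX), 8884 and 14217 (H2AC11), 3048 and 2310 (H2AC20), and 3816 and 1745 (H2AC15). The mean log2 fold of the top peak ran from 6.07 to 12.2 within the first group and from 9.01 to 13.04 within the second, so the groups overlapped widely.

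Many H2A and H2B genes are transcribed away from each other from a shared stretch of promoter. In 11 such pairs the starts lay 194 to 251 nt apart on opposite strands. SLBP signal did not go evenly to the partners: H2A was the higher partner in both replicates in 4 pairs and H2B in 4. H2AC17 held 11979 and 13652 RPM beside 5458 and 2874 for H2BC17. H2BC4 held 16162 and 12061 beside 3721 and 2207 for H2AC6. H2AC14 held 70.9 and 205 while its partner H2BC14 had no listed peak. Across the 11 pairs the Spearman correlation between partners was 0.400 and 0.0636, given as a description.

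Next, SLBP was compared gene by gene with the mean of the 10 RBPs of the K562 10plex. Read shares per gene were tested with limma across all 13078 genes, on the log2 scale of RPM after adding a pseudocount of 10. In this fit 0.979% of all genes were higher in SLBP and 53.4% were lower. Of the 34 histone genes 30 could be tested, and 28 were higher and 0 lower. The 28 include H2AC14 and H2BC3, which could be tested only because of their SLBP peaks and so could only be higher. The median difference was 6.09 on this log2 scale over the 30 genes, beside −0.83 over all genes tested. SLBP and the 10plex were separate experiments, so RBP and experiment cannot be told apart in this comparison, and the SLBP libraries list fewer genes than a 10plex sample.

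H2BC13 and H2AC8 showed the largest differences. H2BC13 held 6829 and 10419 SLBP RPM beside 8.23, 13.02 and 6.17 in the K562 10plex samples, a log2 difference of 8.80 ± 0.47 (SE, limma adjusted p = 0.00208). H2AC8 differed by 8.37 ± 0.80 (adjusted p = 0.00212), with 65.1, 6.78 and 11.4 RPM in the 10plex. The 65.1 came mostly from the IGF2BP2 library of replicate 1 and was 2.61 without it. Without that library H2AC8 stood ahead of H2BC13, at 9.23 against 9.05. H2AC17 differed by 7.60 ± 0.45 (adjusted p = 0.00208) and held 44.7, 53.6 and 72.2 in the 10plex. For these genes the SLBP and 10plex values were separated by far more than the spread within either. H2BC4 differed by 7.46 ± 0.47 and H2AX, which had 107, 94.0 and 101 RPM in the 10plex, by 6.72 ± 0.41, both at an adjusted p of 0.00208.

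The smallest called differences were those of H2AC14 (3.72 ± 0.46, limma adjusted p = 0.00296) and H2BC3 (3.28 ± 0.48, adjusted p = 0.00465), which had no listed peak in the 10plex and rest on 3 to 6 SLBP reads. Both entered the test through the SLBP libraries alone, so the direction was fixed beforehand and the size depends on the pseudocount. The 2 tested genes that did not pass were H2BC6 (0.93 ± 0.84, adjusted p = 0.360) and H2BC18 (1.91 ± 1.32, adjusted p = 0.261), each with a peak in a single SLBP replicate.

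Genes linked to histone mRNA metabolism were not called higher in SLBP. The list of 20 genes held, among others, the U7 snRNP, the cleavage complex, cap-binding and decay proteins, and SLBP itself. Of these, 0 were higher in SLBP and 14 were lower by the same limma fit, beside the 0.979% and 53.4% of all genes. A count of 0 in 20 is near the share of all genes and does not set the list apart. Most of the 20 had no read in either SLBP library, so the lower calls rest largely on missing peaks. ERI1, a 3′ to 5′ exonuclease that trims histone mRNA ends, was the only gene of the list with an enriched SLBP peak, with 2 peaks of 6 reads in all in replicate 2.

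On the mRNA, SLBP sat at the stem-loop. The median centre of its peaks lay 27.8 and 32.0 nt after the stop codon, which is 10.0 and 4.5 nt upstream of the start of the stem-loop. For the highest peak of each gene, where it lay on the annotated mRNA, the medians were 38.0 and 34.3 nt after the stop codon, within 1.25 nt of the stem-loop start. Over the 28 genes enriched in both replicates, wherever the top peak lay, they were 39.25 and 37.25 nt. Of the 129 SLBP peaks on the mRNAs, summed over replicates, 0 had their centre in the 5′ UTR, 35 in the coding sequence and 94 in the 3′ UTR.

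Peaks that overlapped the stem-loop held 74.9% and 87.0% of the members' SLBP reads. The top peak overlapped it in 27 of 28 genes in each replicate, the exceptions being H2BC17 in replicate 1 and H2BC7 in replicate 2. H2A peaks were centred farther from the stop codon than H2B peaks, at medians of 32.5 and 39.5 nt against 20.5 and 26 nt. The stem-loops themselves lie at different distances from the stop codon, and distance from the stem-loop was not compared between the families. A further 11 peaks lay within 100 nt past the annotated end of the mRNA. At H2BC4 in replicate 1, the strongest peak ran from 12 to 57 nt after the stop codon and took 953 reads, and the stretches that follow, at 58 to 69 and 70 to 83 nt, took 178 and 163 reads beyond the annotated end.

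H2AX and H2BC21 have long annotated 3′ UTRs, of 1089 and 1801 nt, and both are known to be made as polyadenylated mRNAs as well. At H2AX the strongest SLBP peak of replicate 1 held 517 reads at 23 to 71 nt after the stop codon, over the stem-loop. Weaker H2AX peaks lay beyond it, with 113 reads at 149 to 212 nt, 64 reads at 326 to 351 nt and 55 reads at 352 to 365 nt. In replicate 2, H2AX likewise held a peak at 324 to 365 nt, with 22 reads. At H2BC21 all SLBP peaks lay between 17 nt before and 101 nt after the end of the stop codon, although its annotated 3′ UTR is the longer one.

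**Figure D3:**
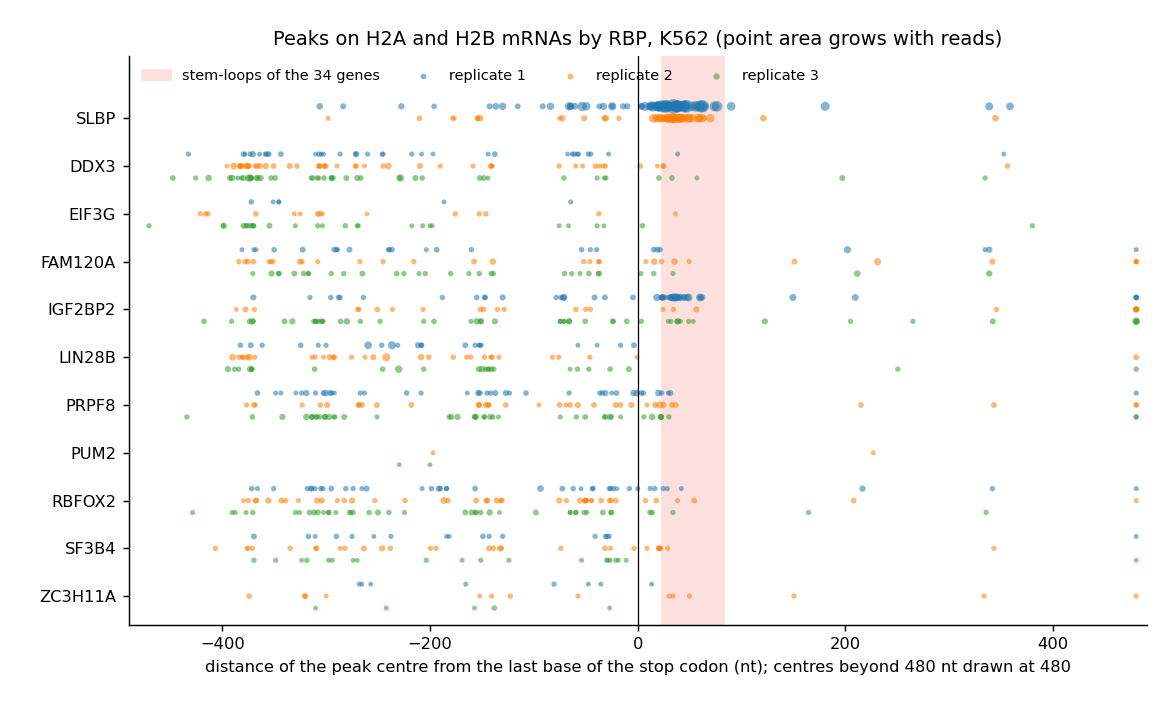
Centre of every peak on the H2A and H2B mRNAs in K562, as distance in nt from the last base of the stop codon, by RBP and replicate; point area grows with reads, centres beyond 480 nt are drawn at 480, and the pink band spans the stem-loops of the 34 genes. SLBP points cluster in the band (medians 27.8 and 32.0 nt), and IGF2BP2 is the only other RBP with a dense group there, in replicate 1.

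The RBPs of the 10plex sat elsewhere on the same mRNAs. Peaks of DDX3, an RNA helicase that acts in translation initiation, had a median centre 105 nt after the start codon over the K562 replicates, with 9 in the 5′ UTR, 105 in the coding sequence and 12 in the 3′ UTR. Those of EIF3G, a subunit of the initiation factor eIF3, had a median of 85.0 nt over 48 peaks. In K562 both lay nearer to the start codon than any other RBP of the pool. In HEK293T the median of PUM2 was the nearest (95.5 nt over 11 peaks), with EIF3G at 116 nt (79.75 and 211.5 in the 2 samples) and DDX3 at 187.75 nt.

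LIN28B, which binds let-7 precursors and many mRNAs, had a median of 184.5 nt after the start codon in K562. FAM120A had 212.75, RBFOX2 (a splicing regulator) 228.5, SF3B4 (a subunit of the U2 snRNP) 237, ZC3H11A (an export factor) 243 and PRPF8 (the core spliceosome protein) 250 nt. IGF2BP2, an mRNA-stabilising protein, had 347.25 nt, and 36 of its 124 K562 peaks overlapped a stem-loop. Leaving out the IGF2BP2 library of replicate 1, reads on the stem-loop were at most 19.04% of member reads in any K562 10plex library and at most 6.40% in HEK293T.

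Some 10plex peaks lay in the gene span but outside the principal mRNA and farther than 100 nt past its end. FAM120A had 112 of these in K562, against 34 for RBFOX2, 24 for SF3B4 and 22 for IGF2BP2. Peaks off the principal mRNA, counted over the K562 10plex libraries, were most frequent at H2BC15 (84 peaks with 626 reads), H2AC6 (49 with 593) and H2BC11 (47 with 578). The gene span of H2AC6 is 14972 nt while its principal mRNA is 519 nt, so such peaks can lie far from the histone coding sequence.

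Within the K562 10plex, the members' share of peak reads differed among RBPs. It was 0.212% ± 0.0442 for DDX3, 0.206% ± 0.129 for EIF3G, 0.168% ± 0.0180 for LIN28B and 0.241% ± 0.244 for IGF2BP2 (SD, n = 3). It was lower for RBFOX2 (0.0824% ± 0.0111), PRPF8 (0.0810% ± 0.0077), SF3B4 (0.0578% ± 0.0147), ZC3H11A (0.0533% ± 0.0280), FAM120A (0.0511% ± 0.0093) and PUM2 (0.0226% ± 0.0196). The values of DDX3 and LIN28B did not overlap with those of the 6 lower RBPs, whereas those of EIF3G and IGF2BP2 ranged widely. In HEK293T the highest means were those of EIF3G (0.401%), LIN28B (0.318%) and DDX3 (0.313%), and the lowest was that of FAM120A (0.0399%).

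Each RBP was then tested against the other 9 in K562 with limma over 9894 genes, and 26 of the 34 histone genes could be tested. Over the 10 RBPs, 23 pairs of RBP and gene were higher and 22 lower. DDX3 had 8 higher and 0 lower where 10.1% of all genes were higher and 6.45% lower. Its largest were H2AC13, with 104, 157 and 160 RPM against a median of 14.9 in the other 27 libraries (2.46 ± 0.50, adjusted p = 0.00142), H2AC11 (2.41 ± 0.55, adjusted p = 0.00388) and H2BC12 (1.999 ± 0.58, adjusted p = 0.0204). H2AC11 in DDX3 held 225, 291 and 320 RPM, and 2 of the other 27 libraries exceeded the lowest of these. The DDX3 count fell to 1 without replicate 2 and to 5 without replicate 3, and rose to 13 without the IGF2BP2 library of replicate 1.

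EIF3G had 3 members higher and 2 lower, beside 4.3% and 36.2% of all genes. H2BC12 held 215, 474 and 412 RPM (7, 22 and 19 reads) in EIF3G against a median of 43.6 in the other libraries (2.93 ± 0.58, limma adjusted p = 0.000518). H2BC17 held 123 and 152 in replicates 1 and 3 (4 and 7 reads) and no listed peak in replicate 2 (1.75 ± 0.52, limma adjusted p = 0.0115). H2AC13 had no listed peak in any of the 3 EIF3G libraries of K562 (−1.86 ± 0.50, adjusted p = 0.00606), while it held 186 and 90.5 in HEK293T. EIF3G libraries were among the shallower ones, with few listed peaks. A gene with 3 reads, the fewest in a peak, stood at 92.3, 64.6 and 65.0 RPM in these libraries. That is above the median of the other libraries at H2BC12 and H2BC17, so any listed EIF3G peak there would lie above it.

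IGF2BP2 had 5 members higher and 0 lower, beside 19.3% and 1.43% of all genes, and all 5 calls rested on replicate 1. H2AX held 653, 187 and 184 RPM in IGF2BP2 (2.40 ± 0.69, limma adjusted p = 0.0134). H2AC8 held 627, 13.6 and 16.2, and H2BC7 held 448, 27.1 and 28.4. At H2AX replicates 2 and 3 also lay above all but 2 of the other 27 libraries, whose median was 49.5. Without that library 0 members were called higher, and 0 were called in HEK293T.

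In IGF2BP2 replicate 1, 26 peaks in 23 genes overlapped stem-loops, against 3 and 7 peaks in replicates 2 and 3. Reads on the stem-loop were 69.5% of its member reads against 9.06% and 10.58%. Off the stem-loop, the members' share of peak reads in that library was 0.160%, beside 0.0817% and 0.0993%. Its levels over 30 genes ran with those of SLBP replicate 1 at a Spearman correlation of 0.863, against 0.699 and 0.566 for the other IGF2BP2 replicates. A cause for this was not tested. Away from the stem-loop, IGF2BP2 peaks recurred far down the 3′ UTR of H2AX, centred 934, 941 and 941.5 nt after the stop codon with 13, 21 and 45 reads in the 3 replicates.

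LIN28B had 5 members higher and 0 lower, beside 16.9% and 6.74% of all genes, and H2AC20 stood out among them. H2AC20, a canonical H2A gene of chromosome 1, held 864, 350 and 303 RPM in the 3 K562 LIN28B libraries. The other 27 libraries had a median of 8.11 and a highest value of 127, so the groups did not overlap. The difference was 4.37 ± 0.52 on the log2 scale (limma adjusted p = 5.02e-07). In HEK293T the LIN28B libraries held 298 and 414 at H2AC20. H2AC13 (2.20 ± 0.50, adjusted p = 0.00188) and H2AC11 (1.99 ± 0.55, adjusted p = 0.00916) were the next largest, and several libraries of other RBPs exceeded LIN28B at them.

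**Figure D4:**
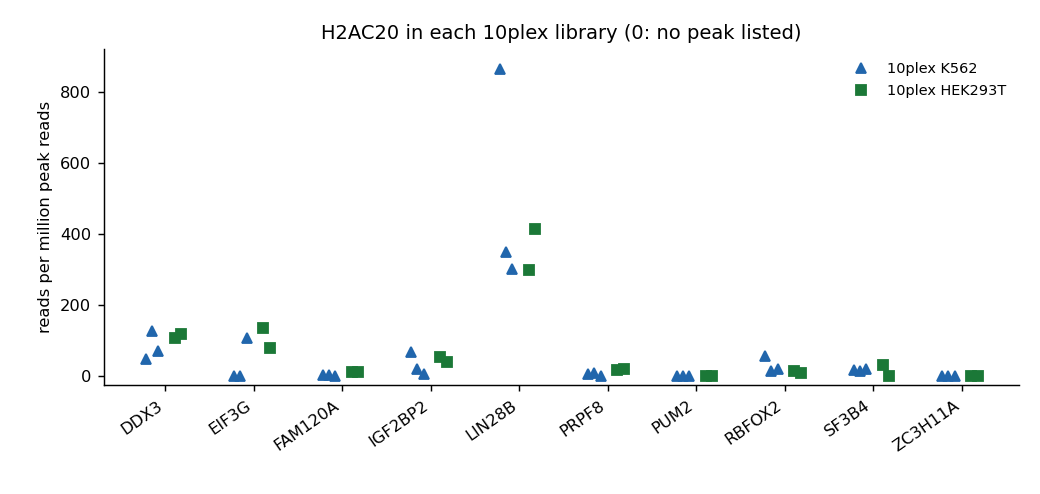
RPM at H2AC20 in each 10plex library, by RBP and cell line; points at 0 had no listed peak. The 5 LIN28B libraries, from 298 to 864, lie above every library of the other 9 RBPs in either cell line.

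LIN28B bound H2AC20 at the same place in every library. The strongest peak was centred 148 to 160 nt after the start codon in all 5 libraries, with 65, 65 and 45 reads in K562 and 46 and 70 reads in HEK293T, and all 5 peaks shared chr1:149887111-149887144 on the plus strand. The 30 nt at chr1:149887113-149887142 of GRCh38 inside that stretch, coding nt 139 to 168, are printed here with the aligned coding nt of the closest H2A paralogs that reads can be told apart from, to show how little separates them. Capitals mark bases that differ from H2AC20.
H2AC20: ggcgcgcccgtctacatggcggcggtcctc
H2AC21: ggcgcCccGgtGtacCtggcggcggtcctc
H2AC16: ggcgcgccGgtGtacCtggcggcggtGctG
H2AC17: ggcgcgccGgtTtacCtggcggcggtGctG

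H2AC21 differs from H2AC20 at 4 of these bases, H2AC16 and H2AC17 at 5, and the other mappable H2A genes at 6 or 7. On the aligned stretch H2AC21 held 5 LIN28B reads in 1 of the 5 libraries, H2AC16 held 8 in 1, and H2AC17 held 4, 11 and 5 in 3. More distant paralogs also held LIN28B reads there: over the 3 K562 and 2 HEK293T libraries H2AC12 held 8, 14, 0, 24 and 21, H2AC6 held 7, 0, 8, 10 and 27, and H2AC11 held 0, 0, 9, 22 and 12. H2AC20, with 65, 65, 45, 46 and 70, held the most in each library. H2AC18 and H2AC19 differ from H2AC20 at 1 base, and none of their windows of 30 nt is unique. The letters GGAG, a motif known from LIN28 targets, do not occur in the 30 nt of H2AC20. They occur in 18.8% of all 18517 windows of 30 nt in the 34 mRNAs (sense strand only).

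H2A genes took most of the LIN28B member reads in K562, at 88.2%, 76.7% and 63.8%, and 77.0%, 69.4% and 56.4% once H2AC20 was set aside. In HEK293T the H2A share was 49.1% and 58.9%. PRPF8 stood at the other side in K562, with H2A shares of 28.4 to 36.7%. EIF3G (20.7 to 43.5%) and ZC3H11A (33.3 to 63.3%) overlapped with it, so a low share was not particular to PRPF8. All these shares count peaks off the principal mRNA as well. For comparison, SLBP had 51.2% and 47.3%. These shares are given as descriptions.

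The remaining RBPs of the pool showed few members above the others. PRPF8 had 1 higher and 1 lower, beside 50.4% and 3.18% of all genes. The higher one was H2BC15, with 149, 129 and 138 RPM (1.58 ± 0.55, limma adjusted p = 0.0167), and the lower one was H2AC13 (−1.26 ± 0.50, adjusted p = 0.0362). FAM120A had 0 higher and 3 lower, beside 27.2% and 4.63%: H2AC7 (−1.60), H2AC11 (−1.55) and H2AC20 (−1.44). H2AC11 held 10.62, 9.14 and 25.4 RPM in FAM120A against a median of 73.3 in the other libraries.

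ZC3H11A had 0 higher and 3 lower, beside 4.6% and 17% of all genes: H2AC20 (−1.78 ± 0.52), H2BC12 (−1.66 ± 0.58) and H2BC15 (−1.66 ± 0.55). These calls rest on missing peaks. H2AC20 had no listed peak in any ZC3H11A library of K562, and H2BC12 and H2BC15 held 8 and 7 reads in replicate 2 alone. The levels of H2BC15 that ZC3H11A is set against include peaks off the principal mRNA. The 3 libraries were among the shallower ones (84008, 106337 and 54587 peak reads), and the part of depth was not tested. PUM2, a Pumilio protein that binds 3′ UTRs, had 1 higher (H2AC21, 1.14 ± 0.46) and 13 lower, beside 2.54% and 51.6%. The H2AC21 call rested on 3 reads in replicate 3, and PUM2 had 0 members higher without the pool as a block, at a pseudocount of 1, without the filter, when any replicate was left out, and without the IGF2BP2 library of replicate 1. The largest of the lower ones, H2AC11 (−2.96), H2BC11 (−2.92) and H2BC12 (−2.80), had no listed peak in any of the 3 PUM2 libraries, which listed 0, 6 and 6 reads in all 34 genes. RBFOX2 had 0 members called in either direction, beside 15.6% and 1.54% of all genes, and 0 at an unadjusted p under 0.05. SF3B4 also had 0, beside 9.87% and 4.63%, with 2 members at an unadjusted p under 0.05.

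The number of libraries with a peak in the gene span differed among paralogs. H2AX and H2AC6 held a peak in 49 of the 54 libraries, and H2AC11, H2BC5, H2BC11 and H2BC21 in 48. At the other end, apart from the pair seen with SLBP alone, H2BC9 held peaks in 8, H2BC6 in 10 and H2AC8 in 16. These counts include peaks off the principal mRNA, which in the K562 10plex held 593 reads at H2AC6, 578 at H2BC11 and 137 at H2BC6. They are thus no measure of binding to the histone mRNA alone. H2AC8 and H2BC8 face each other across 233 nt, and both were nearly absent from the HEK293T lists: H2AC8 had peaks in 13 K562 and 1 HEK293T 10plex libraries, and H2BC8 in 25 and 0.

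The authors also set each peak against the complement control (CC), the pooled reads of the other 9 barcodes of the same tube. Counted over the K562 replicates, 55 of 131 DDX3 peaks in these genes lay above CC at P under 0.001, 47 of 88 LIN28B peaks, 51 of 139 IGF2BP2 peaks (36 of them in replicate 1) and 24 of 50 EIF3G peaks. It was 15 of 138 for PRPF8, 11 of 150 for FAM120A (with 14 below CC) and 8 of 147 for RBFOX2. The share above CC among all peaks of these libraries was not counted. These counts therefore do not show whether the histone genes differ from other genes. The H2AC20 peak of LIN28B in replicate 3 stood at a log2 fold of 4.22 over CC with a −log10 P of 32.9. For replicates 1 and 2 the direction was estimated from the other 9 libraries, a procedure that gave the deposited sign for 304 of 341 replicate 3 peaks (89.1%).

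Finally, the 10plex samples of the 2 cell lines were compared, each sample taken as the mean of its 10 libraries. In limma over 17400 genes, 8.43% were higher in K562 and 40.4% lower. Of the 28 histone genes tested, 3 were higher in K562 and 10 lower, with a median difference (K562 minus HEK293T, log2) of −0.49 beside −0.32 over all genes. Cell line and pool cannot be told apart, and less RNA cannot be told apart from less binding, since no RNA level enters these values. Read counts were also recovered less exactly for HEK293T, where some may be too low. Library totals are sums of these counts, so a HEK293T level may be too low or too high.

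H2BC8 was the clearest gene on the K562 side, with 66.3, 81.3 and 71.8 RPM and no listed peak in HEK293T (3.05 ± 0.15, limma adjusted p = 0.000732). It entered the test through the K562 samples alone, and its difference was 6.21 at a pseudocount of 1 and 1.30 at 50. The size of this difference is thus set by the pseudocount, and its p adds nothing to the absence of listed HEK293T peaks. H2AX held 107, 94.0 and 101 in K562 and 60.5 and 35.5 in HEK293T (0.96 ± 0.23, adjusted p = 0.0234). H2BC12 held 79.6, 97.6 and 117 against 49.3 and 54.7 (0.79 ± 0.19, adjusted p = 0.0267). Without the IGF2BP2 library of replicate 1, H2BC8 held 47.3 in that sample and stayed called (2.91, adjusted p = 0.0014), while H2AX held 45.8 (0.61, adjusted p = 0.257) and H2BC12 held 54.5 (0.63, adjusted p = 0.176), so both then overlapped with HEK293T and were no longer called. H2AC8 held 65.1, 6.78 and 11.4 in K562 and 0.303 and no listed peak in HEK293T, and did not pass the test. It did not pass without that library either (0.71, adjusted p = 0.0646), but passed without K562 replicate 1 (0.90, adjusted p = 0.0188).

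H2BC18 led on the HEK293T side, with 2.41, 3.20 and 1.41 RPM in K562 and 88.1 and 67.5 in HEK293T (−2.82 ± 0.18, limma adjusted p = 0.000838). H2BC5 held 35.6, 29.6 and 52.3 against 315 and 228 (−2.53 ± 0.27, adjusted p = 0.00226). H2BC26 held 4.96, 1.01 and 1.42 against 52.0 and 62.3 (−2.44 ± 0.21, adjusted p = 0.0014). All 3 are H2B genes, 2 of them on chromosome 1, and none overlapped between the cell lines. The other 7 lower genes were H2AC16 (−1.44), H2AC25 (−1.43), H2AC12 (−1.31), H2BC11 (−1.08), H2AC7 (−0.97), H2BC13 (−0.87) and H2AC11 (−0.71). Calls for H2BC8, H2BC18, H2BC5, H2BC26 and H2AC16 held under all alternatives, whereas leaving out either HEK293T sample left 4 genes lower in K562. Without the IGF2BP2 library of replicate 1 the counts were 1 higher and 9 lower.

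**Figure D5:**
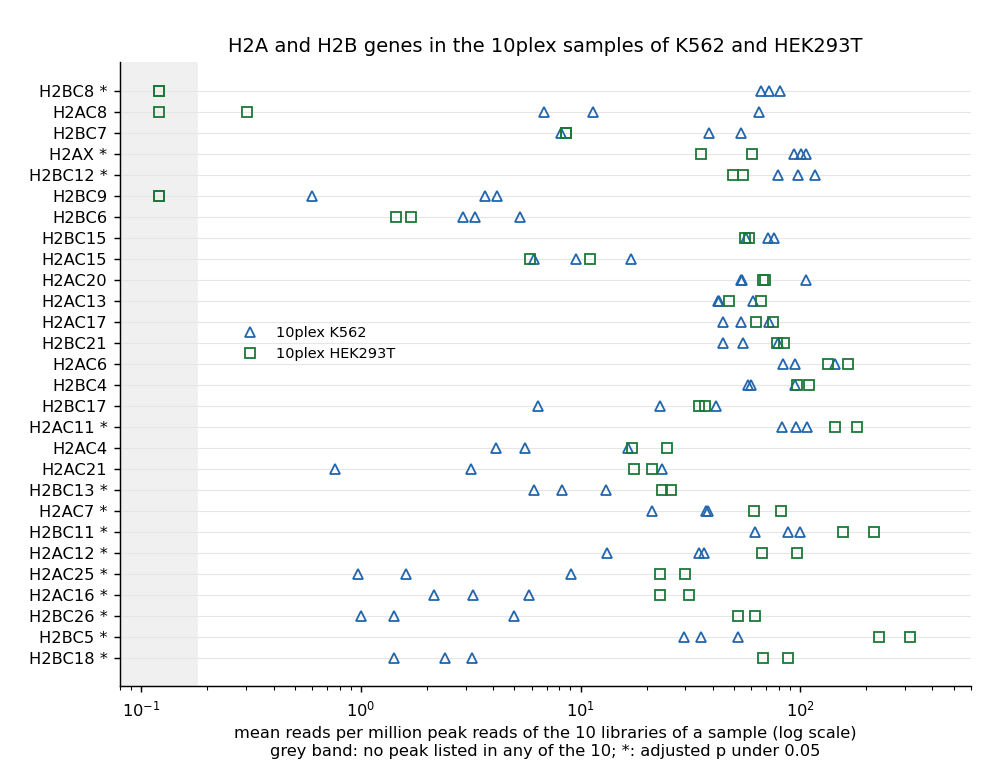
Mean RPM of the 10 libraries of each 10plex sample (log scale) for the H2A and H2B genes with a peak in the 10plex, ordered by the difference between cell lines; triangles are the 3 K562 samples, squares the 2 HEK293T samples, the grey band marks no listed peak and an asterisk an adjusted p under 0.05 with all libraries. H2BC8 at the top and H2BC18, H2BC5 and H2BC26 at the foot separate the cell lines most widely.

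An interaction term asked whether an RBP's level against the other 9 differed between K562 and HEK293T, again with limma. It was fitted over 13936 genes. The share of all genes that differed was 17.7% for PUM2, 13.6% for EIF3G, 12.6% for RBFOX2, 11.5% for ZC3H11A, 8.04% for DDX3, 7.63% for LIN28B, 6.75% for FAM120A, 6.38% for PRPF8, 4.93% for SF3B4 and 4.68% for IGF2BP2. Among the histone genes, EIF3G differed at 6, PUM2 at 3, FAM120A at 2 and ZC3H11A at 1, and the other 6 RBPs at none. EIF3G differed most at H2AC13, with no listed peak in its 3 K562 libraries and 186 and 90.5 RPM in HEK293T (−3.75, adjusted p = 0.000296).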

How the data were processed

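Cells of the ABC experiments were UV crosslinked. The authors' processing notes name cutadapt 2.8 and STAR 2.7.6. By their methods the authors demultiplexed barcodes, removed duplicates by UMI, kept uniquely mapped reads, called peaks per library with CLIPper on GRCh38 (GENCODE 35) and compared each peak with an external background library and, for the 10plex, with the complement control. The deposited lists give per peak a −log10 P-value, a log2 fold change and, for the CLIPper calls, a score and p-value. The P-values came from chi-squared or Fisher's exact tests, and a background of 0 reads was replaced by 1.

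Whole read counts were recovered from each deposited log2 fold and −log10 P. They fitted both for 98.1 to 99.9% of peaks in K562 10plex libraries, 98.5 and 98.9% for SLBP, 70.7 to 88.0% for the HEK293T 10plex, and 71.3 and 89.4% for RBFOX2 singleplex. Unsolved peaks (up to 24.4% in a HEK293T library) were given the reads that a background of 1 read implies, and at least 3. A read number in the peak name was used instead where there was one. Where the true background held more reads the count can be too low. The library total used for RPM is a sum of the same counts and can be too low as well. HEK293T levels are therefore less exact and may be too low or too high. Peaks were assigned by strand to GENCODE 44 genes (bedtools 2.31.1, python 3.11.15, numpy 2.4.6, scipy 1.17.1). Reads were summed per gene and scaled per 1000000 peak reads (RPM). Genes with a peak in at least 2 of 5 samples, or 6 of 30 libraries, were tested as log2 RPM, with a pseudocount of 10, with limma 3.58.1 in R 4.3.3, with Benjamini-Hochberg adjustment at 0.05 over all genes. The fits of RBPs within the 10plex had the pool (replicate) as a block. The fit scripts were tested on simulated data. Replicate numbers did not pair SLBP with 10plex samples (r = 0.0508). In the 10plex fits the median correlation was 0.109 within a pool and −0.0501 between pools.

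The members and lists were chosen with earlier results of these data known. All 34 genes are accounted for. Values are given for the 8 H2A and 8 H2B genes with the highest mean log2 fold among those enriched in both SLBP replicates, members lacking an enriched SLBP peak, up to 3 called members per 10plex RBP, and those in most libraries. Genes or peaks named beyond this rule were chosen after their values were seen. Alternatives were other pseudocounts, no filter, touching peaks counted once, enriched or highest peaks alone, stricter thresholds, summed libraries, left-out replicates, a replicate block and HEK293T in place of K562. The K562 against HEK293T comparison, its interaction with RBP, and leaving out the IGF2BP2 library of replicate 1 were added after seeing the data. One K562 10plex sample carries K563 in a source field and was kept as K562 by its title.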

Additional observations from a re-analysis of the deposited data

Results flagged for a closer look

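The effect of an RBP at a gene, its level against the other 9 RBPs of the pool, was compared between K562 and HEK293T with an interaction term in limma across 13936 genes. At 12 pairs of RBP and histone gene the effects differed at an adjusted p under 0.05, given below as the K562 effect minus the HEK293T effect on the log2 scale.

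EIF3G, for which 13.6% of all genes differed, had 6 of these pairs, all with the lower effect in K562: H2AC13 (−3.75), H2AC15 (−2.78, adjusted p = 0.00246), H2AC11 (−2.78, adjusted p = 0.0303), H2BC18 (−2.34), H2AC20 (−2.18) and H2AC16 (−1.91). PUM2, with 17.7% of all genes, had H2BC8 (−2.74), H2BC5 (−2.62) and H2AC21 (2.42). FAM120A, with 6.75%, had H2BC26 (2.01) and H2BC6 (0.96). In K562 FAM120A held 12, 22 and 4 reads at H2BC26 and 31, 64 and 39 at H2BC6. Off the principal mRNA, the K562 pools held 8 peaks with 38 reads at H2BC26 and 22 peaks with 137 reads at H2BC6. These FAM120A effects are thus no measure of binding to the histone mRNA alone, and the part of such peaks in them was not tested. ZC3H11A, with 11.5%, had H2BC15 (−2.45).

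Deposited fold and P were solved exactly for a smaller share of peaks in the HEK293T pools than in K562, and the part of this in these differences was not tested. H2BC8 had no listed peak in HEK293T, and the PUM2 libraries listed none for it in K562. EIF3G had no listed peak in K562 at H2AC13, H2AC15, H2AC16 and H2BC18. In HEK293T it held only 3 and 4 reads at H2AC15 and 4 and 6 at H2AC16. The EIF3G libraries held 32490, 46435 and 46125 peak reads in K562 and 59006 and 99423 in HEK293T. The part of depth in these differences was not tested.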

How the results depend on the processing

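The count of 28 members higher in SLBP was the same under all alternatives except that it was 29 when either SLBP replicate was left out. Those fits have a single SLBP library, whose spread is assumed to be that of the 10plex samples, and the gene gained had its few reads in that library alone, so they say nothing on its stability. Of 360 values recomputed for SLBP against the 10plex, 356 kept direction and call, 2 were these gains, and 2 not past the threshold reversed: H2BC6 ran from −0.47 without SLBP replicate 1 to 2.32 without replicate 2, and H2BC18 from −0.30 without replicate 2 to 4.13 without replicate 1. The number of all genes higher ranged from 71 to 663 over the left-out replicates. It was 76 with a replicate block, a fit that also drops 10plex replicate 3, and 85 when that replicate was dropped with no block. The block kept 28 members higher. In the 10plex, pairs of RBP and member called higher fell from 23 to 13 to 14 when a replicate was left out. DDX3 had 1 to 6 members higher over left-out replicates and 13 without the IGF2BP2 library of replicate 1. IGF2BP2 had 0 to 5 over left-out replicates, 0 in HEK293T and 0 without that library, and LIN28B had 2 to 3. Of 206 values of named pairs, 143 kept direction and call, 59 kept direction alone and 4 reversed, all with HEK293T in place of K562: EIF3G at H2AC13 (1.89), IGF2BP2 at H2AX (−0.19), ZC3H11A at H2BC12 (0.093) and ZC3H11A at H2BC15 (0.79). The cause was not tested. The mean SLBP share was 15.2% with touching peaks counted once and 15.2% over enriched peaks alone. With the highest peak of each gene alone, H2A took 46.2% of SLBP reads and, for the position of peaks on the mRNA, the median centre lay 36.1 nt after the stop codon. Between cell lines, members higher in K562 ranged from 1 to 3 over left-out samples (1 without K562 replicate 3) and were 1 without the IGF2BP2 library and members lower from 4 to 9 over left-out samples (6 without K562 replicate 2, 4 without either HEK293T sample).

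Peak lists hold no read below the caller's limit, SLBP has 2 replicates of unequal depth, and near-identical copies lose reads to the unique-mapping filter, so absence from a list is weak evidence for any paralog.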
